A study of Macaca fascicularis with 11 samples.

Results

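APOA1, TTR and VTN, 3 genes for secreted proteins, were followed through every lineage, day and genotype of in vitro cultured cynomolgus macaque (Macaca fascicularis) embryos. They were chosen by symbol and read from the deposited matrix by Ensembl identifier, APOA1 as ENSMFAG00000037868, TTR as ENSMFAG00000039111 and VTN as ENSMFAG00000033337, 3 of 19367 genes. Single-cell RNA was sequenced from 12 wild-type embryos in 6 libraries, with 2 libraries for Day 10, 2 for Day 12 and 2 for Day 14. It was also sequenced from 11 ISL1 hypomorphic mutant embryos in 5 libraries, 1 at Day 10 and 2 each at Day 12 and Day 14. The mutants were made by injecting zygotes with Cas9 and 2 guide RNAs against ISL1, a homeobox factor of amnion and mesoderm, so that every mutant embryo was a mosaic of edited cells, and wild-type and mutant embryos alike were grown on a dish beyond implantation stage. A library pooled 1 to 3 embryos, so the spread between libraries is that of pools and not of single embryos. The p-values for day and genotype below measure this spread. Those between lineages, fitted with the library as a block, measure how far a lineage difference varies from library to library.

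Before the chorioallantoic placenta works, the visceral and yolk-sac endoderm takes up nutrients and secretes plasma proteins that the liver makes later. Apolipoprotein A-I, encoded by APOA1, is the scaffold protein of high-density lipoprotein. Transthyretin, encoded by TTR, carries thyroid hormone and, with retinol-binding protein, vitamin A. Vitronectin, encoded by VTN, is a plasma and matrix glycoprotein that binds integrins, the urokinase receptor and the inhibitor PAI-1. APOA1 and TTR are familiar endoderm and liver genes, while VTN is also made outside them.

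The matrices came with no cell types. Clusters were therefore made within each day and named from marker genes, and the 3 genes entered neither step. Of 33330 cells, 489 were endoderm-like, between 11 and 134 per library, beside 23257 trophoblast-like, 6541 extraembryonic mesenchyme-like (ExE-Mech-like) and 2766 epiblast-derived-like (Epi-derived-like) cells. All 11 endoderm markers had UMIs (unique molecular identifiers, 1 per captured transcript) in the endoderm-like cells of every library, with SOX17, a defining endoderm factor, at 247 to 658 CPM (counts per 1000000 UMIs) there and at 0.0697 to 4.10 CPM in trophoblast-like cells. The trophoblast hormone gene CGA stood at 0 to 584 CPM in endoderm-like and at 1207 to 11366 CPM in trophoblast-like cells, and the mesenchyme collagen COL3A1 at 0 to 82.2 CPM in endoderm-like cells. Summed over their lists, endoderm markers stood at 1652 to 2626 CPM in endoderm-like cells. Trophoblast markers stood at 72.1 to 1286 CPM there, ExE-Mech markers at 473 to 879 CPM and Epi-derived markers at 289 to 1103 CPM. A cluster was named endoderm-like, ExE-Mech-like or Epi-derived-like at a mean log2 fold of its markers above 0.8, and trophoblast-like, where none of these held, at one above −1.8, in each case with 3 or more detected markers. Day 10 clusters 4, 6, 12 and 14 of the trophoblast-like cells (453 of their 457 cells wild-type) scored −1.43, −1.17, −1.73 and −1.59 and had no trophoblast marker among their 10 leading genes, where clusters 4, 12 and 14 had the endoderm marker S100A16 and cluster 6 the amnion marker CDO1. Day 12 cluster 28 had the transition marker HMOX1 and no trophoblast marker among its 10 leading genes, but unlike the others it scored 1.49 for trophoblast. APOA1 levels in trophoblast-like cells of Day 10 and Day 12 are also given without these 5 clusters. The libraries do not record where in the embryo a cell lay, so the yolk sac itself was not separated from other endoderm. ExE-Mech-like cells were found in 8 libraries, and at Day 10 in the mutant library alone. Libraries held 36654977 to 164808415 UMIs, and the median endoderm-like cell held between 5830 UMIs in mutant Day 14 library 1 and 73338 UMIs in wild-type Day 12 library 1. Of all cells, 249 carried a barcode also seen in another library, 1 of them endoderm-like.

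In endoderm-like cells APOA1 had more UMIs than any other gene in all 11 libraries. Its level was 60312 and 56208 CPM in the wild-type Day 10 libraries, 67061 and 47624 CPM at Day 12 and 61430 and 54464 CPM at Day 14. In the mutant it was 45597 CPM at Day 10, 59161 and 61324 CPM at Day 12 and 59234 and 48784 CPM at Day 14. APOA1 thus took 4.56% to 6.71% of all UMIs in these cells, its mean was 56472 CPM ± 6705 (SD, n = 11 libraries), the highest library stood 1.47 times above the lowest, and days and genotypes overlapped.

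TTR was far less even. Its level in endoderm-like cells was 2239.9 and 711 CPM in the wild-type Day 10 libraries, 2512 and 1711 CPM at Day 12 and 1818 and 12249 CPM at Day 14. In the mutant it was 1577 CPM at Day 10, 3494 and 1098 CPM at Day 12 and 21291 and 15637 CPM at Day 14. Of the Day 14 libraries, 3 of 4 lay above every library of Day 10 and Day 12, and wild-type Day 14 library 1 lay among the earlier ones. The 10 trophoblast markers, of which 8 to 10 had UMIs in a library, summed to 971, 1286 and 783 CPM in the endoderm-like cells of those 3 libraries and to 342 CPM in wild-type Day 14 library 1. Before Day 14 they summed to 785 CPM in wild-type Day 12 library 1, 1021 CPM in mutant Day 12 library 1 and 72.1 to 191 CPM in the other 5. Mutant Day 12 library 1 stood above mutant Day 14 library 2 in the markers, and wild-type Day 12 library 1 was level with it. Both stood below mutant Day 14 library 2 in TTR. TTR itself stood at 0.0358 to 6.67 CPM in trophoblast-like cells, and the part of such cells in the TTR levels was not tested. For TTR in endoderm-like cells the highest library stood 29.9 times above the lowest, and TTR ranked between 2 and 208 among all genes by UMIs.

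VTN was the lowest of the 3. It stood at 481 and 384 CPM in the wild-type Day 10 libraries, at 830.1 and 817 CPM at Day 12 and at 765.5 and 832 CPM at Day 14. In the mutant it stood at 661 CPM at Day 10, 544.5 and 291 CPM at Day 12 and 1836 and 765 CPM at Day 14. Its range was 6.31-fold, and its rank lay between 92 and 493. UMIs count 3′ ends of transcripts and carry no term for gene length, so these ranks compare captured molecules.

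**Figure D1:**
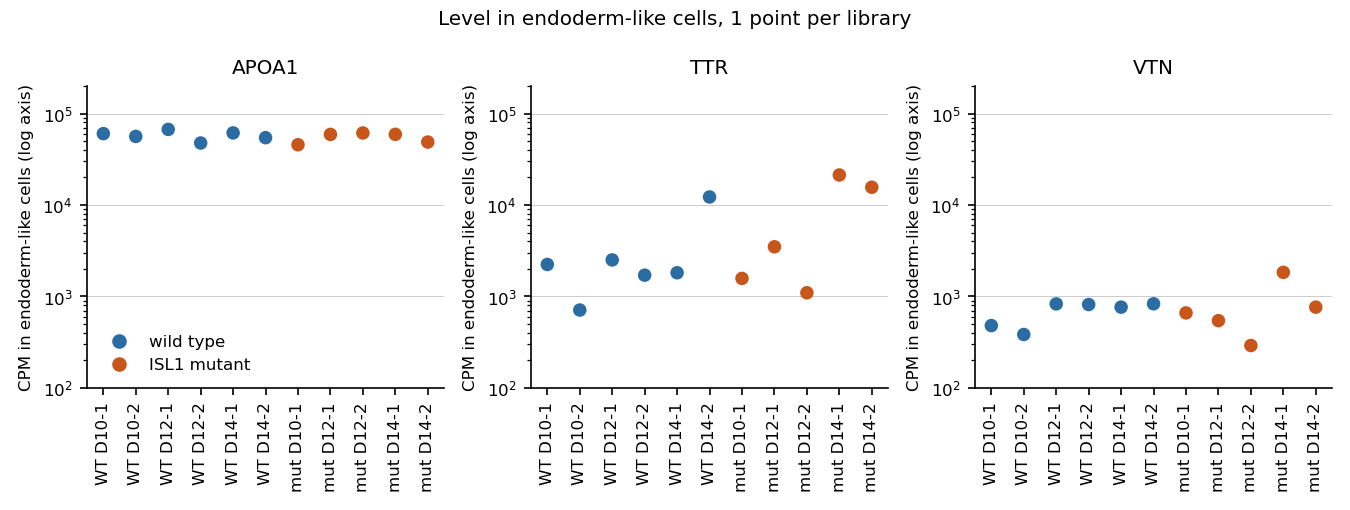
CPM of APOA1, TTR and VTN in endoderm-like cells (vertical log axes) for each of the 11 libraries (1 point each, blue wild type, orange ISL1 mutant, named by day and library number). APOA1 lies between 45597 and 67061 CPM in all libraries, TTR between 711 and 21291 CPM with 3 of the 4 Day 14 libraries highest, and VTN between 291 and 1836 CPM.

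All 3 genes were higher in endoderm-like cells than in the mean of the other lineages wherever this was tested. The study chose them as endoderm genes on wild-type cells of the last day, so those cells are described with no test. The tests at Day 10 and Day 12 took wild-type and mutant libraries together, and ExE-Mech-like cells of Day 10 came from 1 mutant library. In the other lineages of wild-type Day 14, APOA1 stood at 2.87 to 48.4 CPM, TTR at 0.149 to 1.09 CPM and VTN at 0.447 to 67.8 CPM. The 48.4 CPM, in ExE-Mech-like cells of wild-type Day 14 library 2, was 10.15 CPM without 1 cell that held 291 of 368 UMIs. At Day 10 the log2 fold change was 10.34 (SE 1.29) for APOA1, 9.68 (SE 0.49) for TTR and 8.01 (SE 0.39) for VTN, with edgeR adjusted p-values of 0.00119, 3.38e-05 and 2.64e-05. At Day 12 it was 12.18 (SE 0.71), 12.00 (SE 0.52) and 7.07 (SE 0.32), with adjusted p-values of 7.57e-08, 5.91e-09 and 9.08e-09. In the mutant at Day 14 it was 12.70 (SE 0.56), 13.01 (SE 0.51) and 6.68 (SE 0.32), with adjusted p-values of 9.43e-09, 2.95e-09 and 1.80e-08. At the false discovery rate of 1% used throughout, 8.53% of the genes tested were called higher in endoderm-like cells at Day 10. The share was 14.5% at Day 12 and 5.35% in the mutant at Day 14, and all 3 genes were called each time. Among genes with a symbol, from which the 3 came, 22.9%, 31.5% and 22.5% were called higher. The 3 genes were chosen with earlier results of these data known, so these calls are no independent evidence. All 3 were also called above trophoblast-like cells (21.0%, 34.9% and 14.4% of genes called in either direction) and above Epi-derived-like cells (22.8%, 28.0% and 4.97%) in each of these.

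Below endoderm, few differences between lineages were called for APOA1 and TTR. For APOA1 and TTR no pair of the other lineages passed at Day 12 or in the mutant at Day 14, at levels of 0 to 154.5 CPM for APOA1 and 0 to 7.20 CPM for TTR across those libraries and wild-type Day 14. The 154.5 CPM, in ExE-Mech-like cells of mutant Day 12 library 1, rested on 2 cells with 1259 and 1126 of 2560 UMIs, and the level was 10.6 CPM without them. At Day 10, APOA1 was 3.73 (SE 1.09, log2) higher in trophoblast-like than in Epi-derived-like cells, short of the threshold (adjusted p = 0.0228, 31.2% of genes called), and passed with DESeq2 (adjusted p = 0.00283) and without the mutant library (4.24, adjusted p = 2.81e-04). ExE-Mech-like cells of Day 10 came from 1 library, so each test against them at that day assumes that they vary as the other lineages do. APOA1 in endoderm-like over ExE-Mech-like cells of Day 10 came to 9.18 (SE 2.19, log2) and did not pass either (adjusted p = 0.0473, 0.953% of genes called), where DESeq2 gave an adjusted p of 3.08e-06. TTR at Day 10 was called lower in trophoblast-like than in ExE-Mech-like cells (−4.34 on the log2 scale, SE 0.64, 4.66% of genes called) and higher in ExE-Mech-like than in Epi-derived-like cells (4.55, SE 0.69, 4.47% of genes called). Those ExE-Mech-like cells were 59 cells of 1 mutant library in which 65 of 73 TTR UMIs lay in 1 cell. Both calls were lost without wild-type Day 10 library 2 (adjusted p = 0.027 and 0.0304) and with no library block (adjusted p = 0.0748 and 0.0636).

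**Figure D2:**
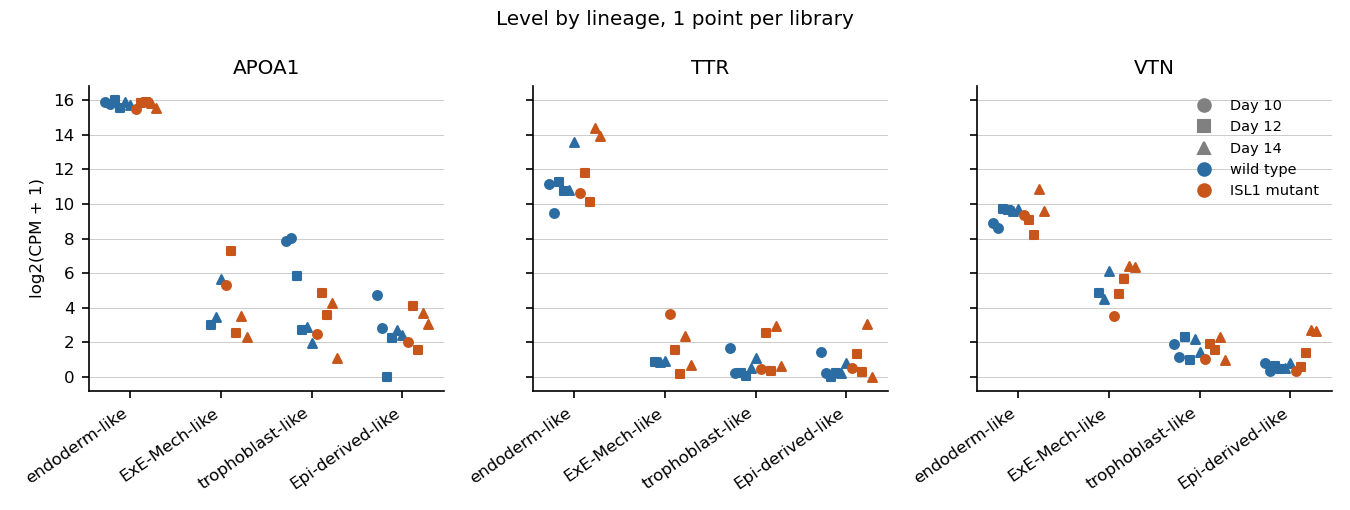
log2(CPM + 1) of APOA1, TTR and VTN in endoderm-like, ExE-Mech-like, trophoblast-like and Epi-derived-like cells (1 point per library, circles Day 10, squares Day 12, triangles Day 14, blue wild type, orange mutant). Endoderm-like cells are highest for every gene, VTN has a second level in ExE-Mech-like cells at 10.5 to 85.2 CPM, and APOA1 stands at 230 and 266 CPM in trophoblast-like cells of the 2 wild-type Day 10 libraries.

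VTN had a second site in ExE-Mech-like cells, a lineage that lays down collagen matrix around the embryo. Its level there was 28.3 CPM in wild-type Day 12 library 2 and 21.3 and 67.8 CPM in the wild-type Day 14 libraries. In the mutant it was 10.5 CPM at Day 10, 26.2 and 48.8 CPM at Day 12 and 85.2 and 79.9 CPM at Day 14. Trophoblast-like cells held 0.930 to 3.93 CPM and Epi-derived-like cells 0.239 to 5.49 CPM, so that ExE-Mech-like levels lay above every library of both.

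The tests gave VTN the order endoderm-like, ExE-Mech-like and then the other lineages at Day 12 and in the mutant at Day 14. Endoderm-like cells exceeded ExE-Mech-like cells by 3.80 (SE 0.45, log2) at Day 12 and by 3.51 (SE 0.43) in the mutant at Day 14, with 23.5% and 9.45% of genes called. Trophoblast-like minus ExE-Mech-like cells gave −4.07 (SE 0.43) and −5.38 (SE 0.46), with 33.6% and 30.1% of genes called, and ExE-Mech-like cells exceeded Epi-derived-like cells by 5.75 (SE 0.57) and 4.12 (SE 0.51), with 31.1% and 17.9% of genes called. All 6 comparisons passed (edgeR adjusted p between 1.32e-06 and 9.46e-05). Trophoblast-like and Epi-derived-like cells did not differ past the threshold at these days, by 1.68 (SE 0.62, adjusted p = 0.0314, 48.3% of genes called) and −1.25 (SE 0.55, adjusted p = 0.0851, 28.6% of genes called). The first passed without mutant Day 12 library 2 (2.37, adjusted p = 0.00692).

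At Day 10, 1 library gave the ExE-Mech-like cells, and their spread is taken from the other lineages. VTN was 5.48 (SE 0.62, log2) higher in endoderm-like than in ExE-Mech-like cells and 4.88 (SE 0.61) higher in ExE-Mech-like than in Epi-derived-like cells. Both were called, beside 0.953% and 4.47% of genes. Trophoblast-like minus ExE-Mech-like cells gave −2.71 (SE 0.52), which missed the threshold (adjusted p = 0.0149, 4.66% of genes called) and passed with DESeq2 (adjusted p = 1.52e-04). Trophoblast-like cells were 2.17 (SE 0.49) above Epi-derived-like cells, which passed (adjusted p = 0.00825, 31.2% of genes called). Without trophoblast-like clusters 4, 6, 12 and 14 the last fell short (2.27, adjusted p = 0.013). Without wild-type Day 10 library 1 the first and the last of these 4 fell short (adjusted p = 0.0159 and 0.0113), and without library 2 the first, the second and the last did (adjusted p = 0.0382, 0.0264 and 0.0682).

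VTN was spread over the mesenchyme rather than held by a few cells. Between 37.1% and 67.9% of ExE-Mech-like cells of a library had a VTN UMI, and after each cell was thinned to 5000 UMIs the share was 7.45% to 34.2%, against 0.243% to 2.03% in trophoblast-like and 0% to 2.62% in Epi-derived-like cells. The top ExE-Mech-like cell held 0.737% to 7.35% of the lineage's VTN UMIs in a library. VTN was seen in the 1 ExE-Mech-like cluster of Day 10, in all 7 of Day 12 (20.1 to 47.9 CPM) and in all 10 of Day 14 (24.8 to 204 CPM). Some trophoblast-like cells of Day 14 reached such levels, with cluster 40 (41 cells) at 30.89 CPM and cluster 29 (277 cells) at 23.45 CPM. The other trophoblast-like clusters of Day 14 stood at 7.58 CPM or less.

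Since mesenchyme cells were many and endoderm cells few, most VTN molecules of some libraries lay outside endoderm. Endoderm-like cells held 93.2% of a library's VTN UMIs in wild-type Day 10 library 1 and 5.95% in mutant Day 12 library 2, where they were 0.428% of the cells and ExE-Mech-like cells held 82.6%. In mutant Day 14 library 2 the shares were 6.46% and 89.0%. APOA1 UMIs lay in endoderm-like cells to 89.6% to 99.3% and TTR UMIs to 92.1% to 99.8%, in 0.283% to 6.69% of the cells.

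**Figure D3:**
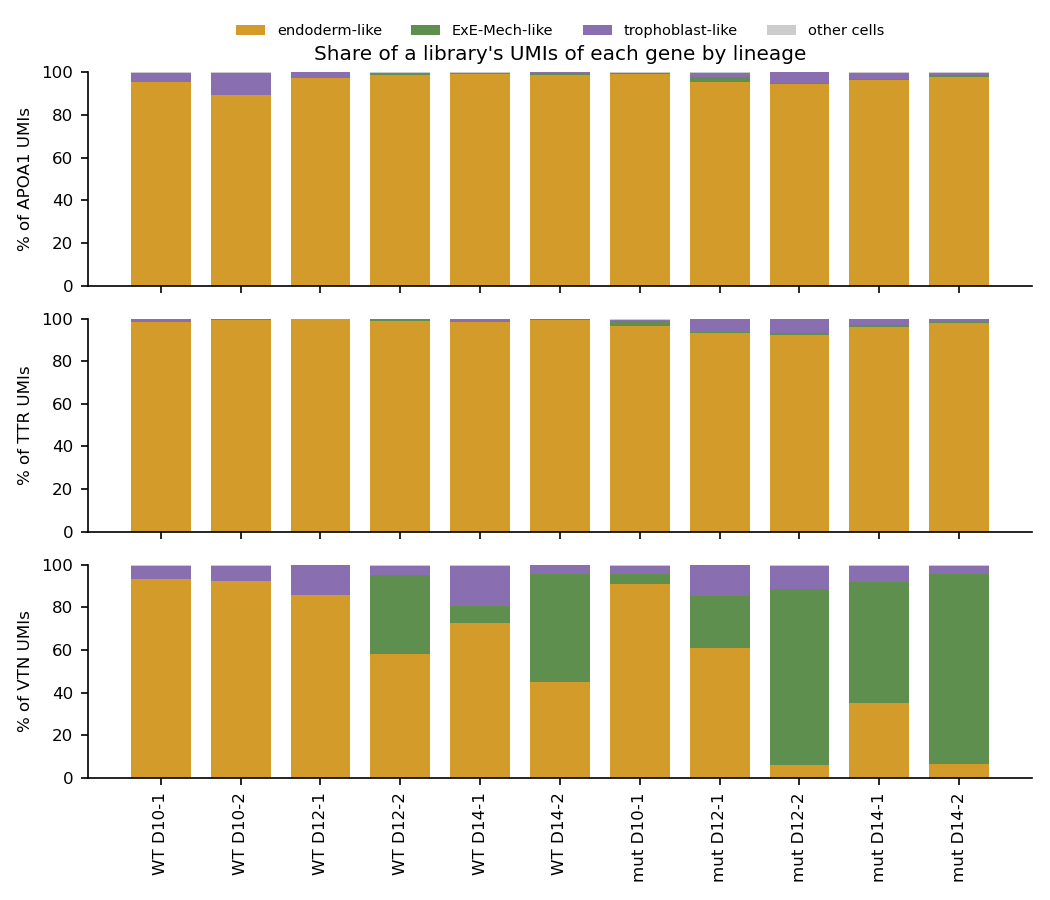
Percent of a library's APOA1, TTR and VTN UMIs that lay in endoderm-like, ExE-Mech-like, trophoblast-like and other cells (stacked bars from 0 to 100%, 1 bar per library). APOA1 and TTR lie almost wholly in endoderm-like cells, at 89.6% or more and 92.1% or more, while VTN moves to ExE-Mech-like cells, up to 89.0%.

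Single endoderm-like cells differed most in TTR. The median cell held between 15.5 CPM in wild-type Day 10 library 1 and 1390 CPM in mutant Day 14 library 1, while the highest cell reached 150822 CPM, and 4 to 48 cells of a library had no TTR UMI. The 10% of cells with the most held 55.7% to 97.5% of a library's TTR UMIs in these cells, against 28.8% to 50.8% for APOA1 and 35.7% to 86.8% for VTN. APOA1 was at 10000 CPM or more in 74.3% and 63.6% of cells of mutant Day 14 libraries 1 and 2 and in 91.4% to 100% of cells of the other libraries. It was at 0 in at most 3 cells of a library.

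Cells with 10000 CPM or more of TTR made up 34.3% of the endoderm-like cells in wild-type Day 14 library 2 (12 cells, exact 95% interval 19.1% to 52.2%) and 28.4% in mutant Day 14 library 1 (31 cells, 20.2% to 37.9%). Mutant Day 14 library 2 had 2 such cells (18.2%, 2.28% to 51.8%), which carried most of its TTR, since 1 cell held 83.7% of the UMIs. In wild-type Day 14 library 1 there was 1 (2.08%, 0.0527% to 11.1%), and in the libraries of Day 10 and Day 12 between 0% and 10.4%. These intervals, as all intervals and detection limits here, cover counting error only. After thinning to 5000 UMIs, 82.4% of cells had a TTR UMI in wild-type Day 14 library 2 and 72.2% in mutant Day 14 library 1, where 37 of 109 cells were too shallow and were left out, against 31.8% to 60.0% in the other 9 libraries. In the 10 libraries that had TTR-rich cells, their summed VTN was 1043 to 5331 CPM and that of the other endoderm-like cells 130 to 676 CPM, and VTN was higher in the TTR-rich cells of each. In 5 of the 10 libraries these were a single cell, and in mutant Day 14 library 2 they were 2.

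Over the cells of a library TTR and VTN moved together, with Spearman coefficients from 0.46 to 0.82 and a median of 0.60. For APOA1 and VTN they ran from 0.37 to 0.83 (median 0.64) and for APOA1 and TTR from −0.21 to 0.75 (median 0.48). Cells of a library share its depth and its source, and with every cell thinned to 5000 UMIs the medians were 0.50, 0.53 and 0.52. One cluster of 29 endoderm-like cells, all of mutant Day 14 library 1, had less of all 3 genes, with 15655 CPM of APOA1, 1531 CPM of TTR and 368 CPM of VTN against 69455, 25925 and 2181 CPM in the other 80 endoderm-like cells of the library. Its median depth was 4634 UMIs against 6675 UMIs, and the part of depth in this was not tested.

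**Figure D4:**
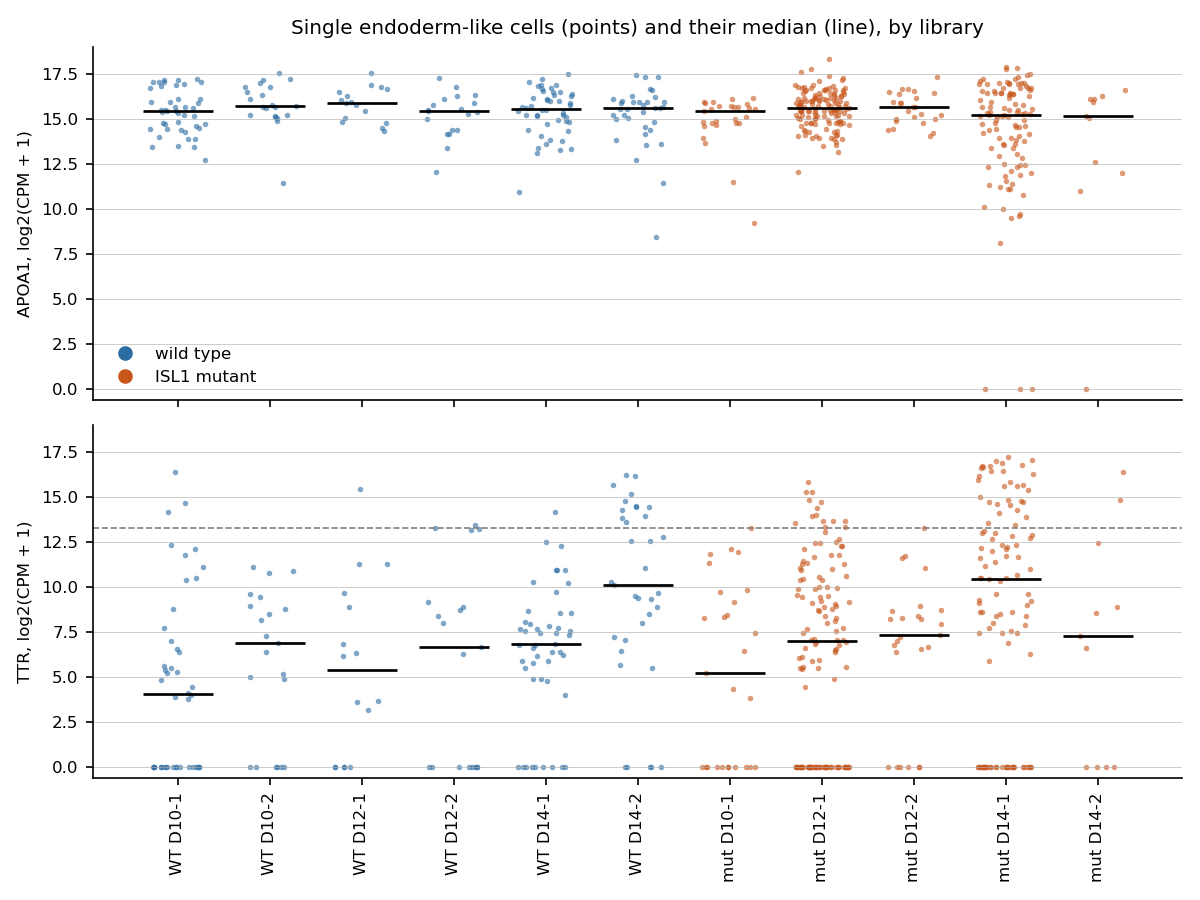
log2(CPM + 1) of APOA1 and of TTR in each endoderm-like cell (points) by library, with the median cell as a black line (blue wild type, orange mutant, dashed line at 10000 CPM of TTR). APOA1 is at 10000 CPM or more in 74.3% and 63.6% of cells of mutant Day 14 libraries 1 and 2 and in 91.4% to 100% of cells of the other libraries. TTR runs from cells with no UMI to 150822 CPM, and cells above the dashed line are 12 of 35 in wild-type Day 14 library 2 and 31 of 109 in mutant Day 14 library 1.

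Whether the 3 genes changed with time or with the ISL1 mutation in endoderm-like cells was tested in 1 fit over all 11 libraries. None of the 33 combinations of a gene and a contrast passed with edgeR and its low-count filter or with DESeq2, and 6 had an unadjusted p below 0.05 in edgeR. Few genes at all passed in this fit. Of 9778 genes tested, 2 (0.0205%) passed between Day 14 and Day 10 in wild type and 2 (0.0205%) between mutant and wild type over the mean of the days. None (0%) passed in the other 9 contrasts, in each of which 353 to 722 genes had an unadjusted p below 0.05 and DESeq2 called 0 to 18. With the batch number as a block the first 2 counts were 7 and 9, and 3 genes passed between Day 14 and Day 10 in the mutant.

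The largest day differences among the 3 genes were those of TTR. In the mutant, Day 14 exceeded Day 10, which has 1 library, by 3.59 (SE 1.13, log2, adjusted p = 0.532). Day 14 exceeded Day 10 by 2.20 (SE 0.79, log2) in wild type (adjusted p = 0.347), and Day 14 exceeded Day 12 by 3.09 (SE 0.82) in the mutant (adjusted p = 0.603). COL3A1 was highest in the endoderm-like cells of the mutant Day 14 libraries, at 82.2 and 35.6 CPM. The 8 ExE-Mech markers together summed to 879 CPM in library 1, the highest of all libraries, and to 480 CPM in library 2. Over all libraries they ranged from 473 to 879 CPM. In the wild-type Day 10 libraries, where COL3A1 was at 0 CPM, they summed to 473 and 623 CPM. TTR stood at 0.134 to 11.3 CPM in ExE-Mech-like cells, and the part of such cells in the TTR differences was not tested. The wild-type TTR difference of 2.20 rested on 1 library, being 0.35 without wild-type Day 14 library 2. VTN differed by 0.86 (SE 0.42, adjusted p = 0.558) and 1.73 (SE 0.43, adjusted p = 0.481) in the same contrasts, and APOA1 by −0.03 (SE 0.41) and −0.09 (SE 0.41). With no filter on low counts, TTR passed in both contrasts (adjusted p = 2.97e-05 and 1.51e-09) and VTN in the second (adjusted p = 0.00236), while the number of genes called rose to between 63 and 302 per contrast.

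Between genotypes, over the mean of the days, mutant minus wild type was −0.18 (SE 0.26, log2, adjusted p = 0.922) for APOA1, 0.50 (SE 0.47, adjusted p = 0.843) for TTR and 0.08 (SE 0.26, adjusted p = 0.987) for VTN. At Day 10, with 1 mutant library whose spread is taken from the other groups, it was −0.42 (SE 0.51), 0.05 (SE 0.92) and 0.55 (SE 0.50). At Day 12 it was −0.01 (SE 0.41), 0.02 (SE 0.76) and −1.04 (SE 0.42, unadjusted p = 0.03 in edgeR, adjusted p = 0.697), and at Day 14 −0.11 (SE 0.41), 1.44 (SE 0.77) and 0.73 (SE 0.42). The Day 14 value of TTR was 0.66 without wild-type library 1 and 3.29 without wild-type library 2, and that of VTN was −0.12 without mutant library 1. The mutant difference itself changed between Day 12 and Day 14 by 1.77 (SE 0.60, adjusted p = 0.98) for VTN and by 1.41 (SE 1.08, adjusted p = 0.98) for TTR, which ran from 0.92 to 2.28 and from 0.63 to 3.26 as each library was left out. Both mutant Day 12 libraries had less VTN than both wild-type ones, and at Day 14 mutant library 1 lay above and library 2 just below the wild-type pair. In counts simulated for the wild-type Day 14 and Day 10 comparison over the same 9778 genes, 200 genes were changed. A change of 3 on the log2 scale was called for 70.0% of them, a change of 2 for 22.5% and a change of 1 for 0%, beside 8, 2 and 0 unchanged genes called. The adjusted threshold is easier to reach with 200 changed genes than in the fit above, where few genes passed, so these shares do not carry over to it. The genotype contrasts were not simulated.

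Most trophoblast-like cells of the 2 wild-type Day 10 libraries held an APOA1 UMI, 76.1% and 93.7% of them. The level there was 230 CPM (7446 UMIs in 448 cells) and 266 CPM (11462 UMIs in 412 cells), against 4.61 CPM in the mutant Day 10 library (263 UMIs in 454 cells). At Day 12 it was 55.6 and 5.58 CPM in wild type and 28.3 and 11.1 CPM in the mutant. At Day 14 it was 6.36 and 2.87 CPM in wild type and 18.4 and 1.09 CPM in the mutant. Both wild-type Day 10 libraries thus lay above all 9 others. Without the 5 clusters led by other markers, the Day 10 levels were 261 CPM (240 cells) and 197 CPM (167 cells) in wild type and 4.55 CPM (450 cells) in the mutant. The 261 CPM rested on 1 cell with 2750 of 4683 UMIs, which also held SOX17, and was 108 CPM without it. The Day 12 levels, without cluster 28, were then 10.00 and 4.92 CPM in wild type and 27.5 and 11.1 CPM in the mutant. CGA in wild-type Day 12 library 1 fell as well, from 11366 to 8660 CPM, so that cluster was rich in CGA. TTR in the wild-type Day 10 libraries moved from 2.19 and 0.163 CPM to 2.73 and 0.0533 CPM without the 5 clusters, and VTN from 2.68 and 1.21 CPM to 3.68 and 1.01 CPM. Some of the lower levels rested on few cells, since 1 cell held 1206 of 2355 UMIs in wild-type Day 12 library 1, and without cells that held a SOX17 UMI the mutant Day 12 libraries stood at 11.2 and 1.76 CPM.

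The median trophoblast-like cell held 3 and 12 APOA1 UMIs in the wild-type Day 10 libraries and 0 in every other library, and 25.0% and 54.6% of the cells had 10 UMIs or more, against 0.220% in the mutant Day 10 library. Without the clusters led by other markers the medians were 3 and 8 UMIs, and the shares 18.75% and 46.1%. In Epi-derived-like cells of the same libraries 1.44% and 0% of cells had 10 or more. At 5000 UMIs a cell, 31.25% (exact 95% interval 27.0% to 35.8%) and 48.5% (43.6% to 53.5%) of trophoblast-like cells had an APOA1 UMI, against 10.1% (5.62% to 16.3%) and 3.96% (1.725% to 7.65%) of Epi-derived-like cells. Median depths were 64176 and 92979 UMIs in trophoblast-like and 51888 and 92891 UMIs in Epi-derived-like cells. The intervals of the 2 lineages did not overlap in either library, but they cover counting error over its cells and not the spread between libraries. Tested over all Day 10 libraries, the APOA1 difference of these lineages fell short of the threshold (edgeR adjusted p = 0.0228). Without the mutant library it passed. The part of free RNA in these shares was not tested.

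APOA1 was seen in every trophoblast-like cluster of these libraries, at unequal levels. Trophoblast-like clusters with 5 or more cells stood at 37.1 to 1123 CPM in wild-type library 1 and at 34.9 to 391 CPM in library 2, and at 2.01 to 7.86 CPM in the mutant. The 1123 CPM is that of cluster 8, which held the cell with 2750 UMIs and stood at 197.5 CPM without it, and every other cluster of library 1 lay at or below 338 CPM. In the largest cluster shared by all 3 libraries in number of cells, cluster 0, the levels were 131.0 and 221 CPM in wild type and 6.09 CPM in the mutant, with CGA at 76.7 and 51.9 CPM against 676 CPM, and the part of this unlike CGA level was not tested. Clusters 4, 6, 12 and 14, nearly all wild-type, stood at 89.7 to 338 CPM in library 1 and at 220 to 391 CPM in library 2, with CGA at 4.59 to 86.8 CPM. In library 1 a single cell with 2750 UMIs held 36.9% of the APOA1 UMIs, and that cell was among the 14 trophoblast-like cells with a SOX17 UMI, without which 4644 of 7446 UMIs and a level of 149 CPM remained. In library 2 the top cell held 4.85%, and without the 3 cells with a SOX17 UMI the level was 261.5 CPM. The other endoderm markers were not used in this exclusion.

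**Figure D5:**
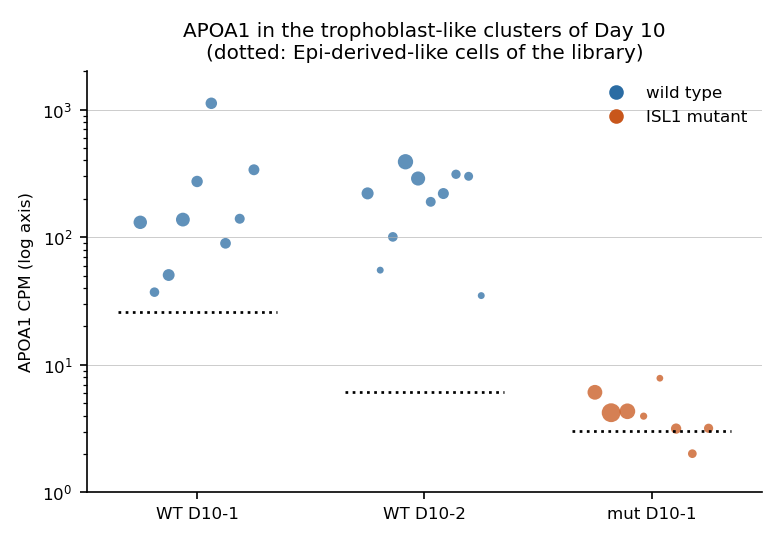
APOA1 CPM (vertical log axis) in the trophoblast-like clusters of the 3 Day 10 libraries (1 point per cluster with 5 or more cells, larger for more cells, blue wild type, orange mutant), with the level in Epi-derived-like cells of the library as a dotted line. All wild-type clusters lie above their dotted line, from 34.9 to 391 CPM beside cluster 8 of library 1 at 1123 CPM (197.5 CPM without 1 cell), and the mutant clusters lie between 2.01 and 7.86 CPM around theirs.

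The ratio of other endoderm transcripts to APOA1 in these cells differed between genes and libraries. Per 1000 APOA1 UMIs, TTR had 9.54 UMIs (exact interval 7.44 to 12.0) and 0.611 UMIs in trophoblast-like cells of the wild-type Day 10 libraries, against 37.1 (36.2 to 38.1) and 12.7 in endoderm-like cells. Without the cells that held SOX17, the first was 15.3 (11.9 to 19.3). The prothrombin gene F2 had 1.75 (0.929 to 2.99) against 1.82 (1.62 to 2.04) per 1000 in library 1, where the intervals overlapped, and 0.698 (0.301 to 1.38) against 2.17 (1.89 to 2.48) in library 2, where they did not. VTN had 11.7 against 7.98 per 1000 in library 1 and 4.54 against 6.84 in library 2, with intervals apart in both. Over all lineages and libraries, the VTN to APOA1 ratio stood apart from that of the library's endoderm-like cells in 28 of 29 cases. The exception was the Epi-derived-like cells of wild-type Day 12 library 2. The ratio was higher in 28, all but the trophoblast-like cells of wild-type Day 10 library 2. The TTR to APOA1 ratio stood apart in 15 of 29.

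In the tests of day and genotype in the other lineages, no combination passed with edgeR and its low-count filter, among 15 in trophoblast-like, 12 in ExE-Mech-like and 15 in Epi-derived-like cells. With no such filter 3 passed in Epi-derived-like cells, VTN between genotypes at Day 14 among them, where the genes called rose from 1 to 657. APOA1 in wild-type trophoblast-like cells fell short with −5.69 (SE 1.50, log2) between Day 14 and Day 10 (adjusted p = 0.0441) and passed with DESeq2 (adjusted p = 5.73e-04), and 2.16% of genes were called. With uncorrected counts the value was −4.57 (adjusted p = 0.109). Mutant minus wild type over the days was −1.86 (SE 0.83, adjusted p = 0.224) for APOA1 in these cells and was −1.16 without the 5 clusters led by other markers and 0.12 without the mutant Day 10 library. Day 10 has 1 mutant library, so genotype and library cannot be told apart there.

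VTN in ExE-Mech-like cells differed between mutant and wild type by 1.00 (SE 0.51, adjusted p = 0.361) at Day 14, from 0.43 without wild-type Day 14 library 1 to 1.94 without library 2. Over the days it differed by 0.74 (SE 0.41, adjusted p = 0.401), which was lowest, 0.45, without mutant Day 12 library 2 and highest without wild-type Day 14 library 2. The genotypes filled different clusters at Day 14, since clusters 11, 13 and 14 held 34.8%, 31.7% and 20.9% of the wild-type ExE-Mech-like cells and 11.5%, 11.5% and 12.3% of the mutant ones. In these 3 clusters VTN stood at 21.25, 88.4 and 30.3 CPM in wild type and at 63.5, 57.8 and 42.7 CPM in the mutant. Cluster 27, with the highest level over both genotypes (204 CPM), held mutant cells alone. In Epi-derived-like cells it differed by 3.34 (SE 0.83, adjusted p = 0.0891) at Day 14, where the levels were 0.447 and 0.740 CPM in wild type and 5.49 and 5.35 CPM in the mutant from 2 to 16 UMIs a library. Of the 14 UMIs of mutant library 2, 7 and 5 lay in 2 cells. Here too the clusters differed, with 60.7%, 30.9% and 8.38% of wild-type and 15.7%, 54.2% and 30.1% of mutant cells in clusters 18, 21 and 36, where VTN stood at 0.629, 0.288 and 0 CPM in wild type and at 8.35, 3.71 and 7.55 CPM in the mutant, from at most 12 UMIs each. The shares of all genes called were 0.00661% for the mutant contrasts of trophoblast-like cells at Day 12 and over the days and 0% for their other 2 contrasts. They were 0% for all 4 contrasts in ExE-Mech-like cells, with 1202 to 2174 genes at an unadjusted p below 0.05 and 15 to 236 called by DESeq2. In Epi-derived-like cells they were 0.0324%, 0%, 0.00810%, 0.00810% and 0.0243% for Day 14 against Day 10, Day 14 against Day 12 and the mutant at Day 12, at Day 14 and over the days. These were 4, 0, 1, 1 and 3 genes, and with the batch number as a block 24, 0, 0, 2 and 0.

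Genes that work beside the 3 were taken from lists, of which part could be matched to an identifier through the study's tables of genes that differ between cell types of these data, 4 of 11 lipoprotein genes, 1 of 11 plasma carriers, 5 of 15 haemostasis genes, 3 of 14 receptors and partners and 0 of 6 hepatic regulators. In endoderm-like cells over the mean of the other lineages, 12 of these 13 were called higher at Day 10, 11 of 13 at Day 12 and 10 of 12 tested in the mutant at Day 14, with PLAU, the urokinase gene, the 1 gene called lower each time. Of all genes tested 8.53%, 14.5% and 5.35% were called higher, and of those with a symbol 22.9%, 31.5% and 22.5%, so that the matched genes were favoured by how symbols were found and the counts are no independent evidence. The median log2 fold change at Day 10, Day 12 and mutant Day 14 was 4.66, 5.11 and 3.55 for the lipoprotein genes, 4.85, 4.46 and 4.08 for the haemostasis genes and 3.13, 3.04 and 1.91 for the receptors and partners, against −0.02, −0.04 and −0.15 over all genes tested and 0.23, 0.20 and 0.07 over those with a symbol. Lipoprotein genes were led by MTTP, the transfer protein that loads lipid onto lipoproteins, at 9.69 (SE 0.59), 8.66 (SE 0.39) and 11.67 (SE 0.47) on the log2 scale. APOE, a ligand of lipoprotein receptors, was 2.93, 3.47 and 3.55 higher, APOC1 2.54, 2.88 and 2.69, and APOA2, the second protein of high-density lipoprotein, 6.40 and 6.75 at Day 10 and Day 12. In level, APOE stood at 8375 to 16334 CPM in endoderm-like cells and at 1071 to 3082 CPM in ExE-Mech-like cells.

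Among the haemostasis genes F2 was 8.59, 9.63 and 9.87 higher, SERPINE2, a protease inhibitor, 7.08, 5.49 and 4.08, PROS1, protein S, 4.85, 4.46 and 4.80, and TFPI, which inhibits tissue factor, 4.06, 3.76 and 3.17. F5, coagulation factor V and named after its values were seen, was called higher at Day 10 alone (3.53) and stood at 44.1 to 233 CPM in ExE-Mech-like cells against 0 to 46.9 CPM in endoderm-like cells. The cobalamin carrier TCN2 was 5.51, 6.37 and 7.00 higher. Of the partners, ABCA1, which loads cholesterol onto apolipoprotein A-I, was 5.05, 3.71 and 1.91 higher and PLTP, the phospholipid transfer protein, 3.13, 3.04 and 2.59. PLAU had log2 fold changes of −2.14, −2.16 and −2.37. None of the list genes was called in any contrast of day or genotype, in endoderm-like cells or in the other 3 lineages.

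Likeness of pattern was measured by Pearson's r of log2(CPM + 1) over the 41 sums of a library and a lineage, among 880 genes with a symbol and a mean of 5 CPM or more. The points share libraries and lineages, and FOXA1 and IHH are themselves among the markers that named the endoderm-like clusters. APOA1 was most like RAB17 (0.970), LOC102122400 (0.970), TM4SF5 (0.960), MTTP (0.959) and IHH (0.956). TTR was most like F2 (0.981), FOXA1 (0.977), MTTP (0.975), IHH (0.974) and SPINK1 (0.968). VTN was most like METTL9 (0.964), PLA2G12B (0.947), PROS1 (0.940), GAMT (0.935) and PLTP (0.921). Among themselves APOA1 and TTR reached 0.949, TTR and VTN 0.887 and APOA1 and VTN 0.871. The genes most like VTN were seen outside endoderm as well, with METTL9 at up to 196 CPM and PLTP at up to 508 CPM in another lineage, against at most 5.89 CPM for the 5 genes most like APOA1.

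With all cells of a library summed, a level reflects both how many endoderm-like cells there were and what each held. APOA1 then stood at 3805, 1616, 1854, 473, 855 and 835 CPM in the 6 wild-type libraries and at 1114, 985, 168, 432 and 78.3 CPM in the 5 mutant ones. Mutant minus wild type was −1.79 on the log2 scale, and the groups overlapped (exact permutation test, two-sided, p = 0.0736, 0.221 adjusted over the 3 genes). In the 5 pairs of the same day and batch number the mutant was lower in 5 of 5, by a mean of −1.72 ± 1.02 (SD), where the exact permutation p, 0.0625 (0.1875 adjusted over the 3 genes), is the smallest that 5 pairs can give. That a number pairs a mutant with a wild-type library is assumed and not stated by the labels. TTR differed by −0.66 (exact permutation p = 0.563) and VTN by −0.05 (exact permutation p = 0.887). Without wild-type Day 12 library 2 the APOA1 difference was −2.07, with an exact permutation p of 0.0476. With any other library left out the exact permutation p lay between 0.0571 and 0.162, the latter at −1.24 without mutant Day 14 library 2. Endoderm-like cells made up 1.51% to 6.69% of cells in wild-type and 0.283% to 3.51% in mutant libraries, which overlap. Within these cells mutant minus wild type was −0.18 (SE 0.26, log2) for APOA1. The part of cell number and of level per cell in the whole-library difference was not tested.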

How the data were processed

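Single-cell 3′ libraries of cultured wild-type and ISL1 mutant cynomolgus embryos were analysed from 2 deposited matrices. Per the labels and the study's methods, the authors aligned reads with Cell Ranger 3.1.0 to Macaca_fascicularis_5.0 (Ensembl release 96), dropped cells with 7.5% or more mitochondrial UMIs and kept genes found in 3 or more cells. The authors deposited these UMI counts before correction, and a second matrix of expected counts, whole numbers left after SoupX removed ambient RNA. SoupX was calibrated on choriogonadotropin in POU5F1-positive cells and removed 0.196% to 8.77% of a library's UMIs. The expected counts were analysed here for the 33330 cells found in both matrices, and the 209 cells of the uncorrected matrix alone were left out. The matrices pair no identifiers with symbols, so symbols came from the study's supplementary tables, which gave 1024 genes a symbol.

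Cells of each day were clustered with Seurat 5.3.0 (5000 features, 30 dimensions, resolution 0.8), and clusters were named from markers of endoderm, trophoblast, ExE-Mech and Epi-derived cells. The naming thresholds were set after the clusters' marker levels were seen. No doublet caller was run. The members and gene lists were chosen with earlier results of these data known. UMIs were summed per library and lineage with 5 cells or more and tested with edgeR 4.0.16 (quasi-likelihood F test, TMM normalization, filterByExpr, two-sided) in R 4.3.3, with Benjamini-Hochberg adjustment over all genes and a false discovery rate of 1%. Lineages were compared within a day with the library as a block. DESeq2 1.42.0, no low-count filter, uncorrected counts, other resolutions and seeds, other cell minimums and leaving out each library were alternatives, and leaving out cells of other lineages with a SOX17 UMI, or clusters led by more markers of another list than of their own, was added after seeing the data. Exact permutation tests used scipy 1.17.1. CPM is per 1000000 UMIs of the sum, and 1 was added before log2. Count models were tested on simulated data.

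Named genes are the 3, up to 4 genes per list with the largest called change and the 5 genes most alike in pattern. The labels give each library a batch number, and the study combined the days of each batch to integrate its cells with in vivo ones. Whether wild-type and mutant libraries of 1 number shared a run is not stated, so pairing by number is an assumption. The correlation of same-numbered deviations ran from −0.07 to 0.20 in endoderm-like and from −0.18 to 0.21 in trophoblast-like sums, and was above 0 for the wild-type pairs in both. Between wild type and mutant at Day 12 and Day 14 it was 0.05 and −0.05 in endoderm-like and 0.06 and 0.06 in trophoblast-like sums. The fits had no replicate block, and the fit with it was an alternative.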

Additional observations from a re-analysis of the deposited data

Results flagged for a closer look

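The uncorrected matrix held 209 cells that the corrected one lacked, which entered no comparison and had a median depth of 3942 UMIs. They held all 3 genes, which drew attention as signal in data outside the main measurement. APOA1 stood at 1067.2 CPM (1038 UMIs in 15 cells, at most 419 in 1 cell), TTR at 466.8 CPM (454 UMIs in 6 cells, at most 214) and VTN at 50.38 CPM (49 UMIs in 7 cells). A few cells thus carried the signal, and which lineage they belonged to was not tested. No library stood apart from its genotype in the whole-library levels of the 3 genes, in 6 groups tested with Dixon's ratio, of which chance would mark about 1 in 20.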

How the results depend on the processing

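The 9 differences between endoderm-like cells and the mean of the other lineages kept their direction and stayed past the threshold in every alternative run, at 9.83 to 10.92 (APOA1), 9.46 to 10.66 (TTR) and 7.98 to 8.80 (VTN) on the log2 scale when a Day 10 library was left out. For mutant Day 14 no library could be left out. With no low-count filter, TTR passed between Day 14 and Day 10 in wild type (2.15), TTR (3.03) and VTN (1.68) passed between Day 14 and Day 12 in the mutant, and VTN passed between genotypes at Day 14 in Epi-derived-like cells (3.27). The combinations that passed then came to 5 in endoderm-like and 3 in Epi-derived-like cells. With DESeq2, APOA1 passed in trophoblast-like cells between Day 14 and Day 10 (−5.72), the 1 combination there. In endoderm-like cells the genotype difference of VTN over the days, 0.08, turned to −0.02 without the 5% of cells with the most UMIs. With the batch number as a replicate block it was −0.07, and the block changed no other call or sign of the 3 genes. The causes of these changes were not tested.

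Leaving out 1 library moved that VTN difference between −0.20 and 0.25, its Day 14 value between −0.12 and 1.24, the wild-type TTR difference of Day 14 and Day 10 between 0.35 and 3.20, the genotype difference of TTR over the days from 0.17 (without mutant Day 12 library 1) to 1.12 (without wild-type Day 14 library 2), the mutant difference of Day 14 and Day 12 between 2.46 and 4.12 for TTR and between 0.88 and 2.24 for VTN, and the genotype difference of APOA1 in trophoblast-like cells between −2.87 and 0.12. APOA1 in endoderm-like cells ran from −0.18 to 0.11 between wild-type Day 14 and Day 10, from −0.29 to 0.09 between mutant Day 14 and Day 12 (0.08 with 20 cells or more), from −0.31 to 0.07 between genotypes at Day 14 (0.05 with 20 cells or more), and from −0.52 to 0.23 for the change of the genotype difference. In whole libraries the genotype difference ran from −2.20 to −1.24 for APOA1, from −1.25 to 0.17 for TTR and from −0.30 to 0.09 for VTN. As a replicate block, pairs of the same day and number, added after seeing the data, gave −1.72, −0.94 and −0.21. Without thinning, the median share of cells with a UMI rose from 52.6% to 68.75% for TTR and from 68.2% to 89.47% for VTN in endoderm-like cells, and from 17.8% to 56.66% for VTN in ExE-Mech-like cells.

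Counts of genes called over all genes moved more. Endoderm-like against the mean of the others gave 1962 genes at Day 10 (346 without wild-type Day 10 library 1, 2997 with DESeq2), 3372 at Day 12 (1642 without mutant Day 12 library 1) and 936 in the mutant at Day 14 (478 with 20 cells or more, 1528 with no filter). Wild-type Day 14 against Day 10 in trophoblast-like cells gave 327 (0 without wild-type Day 10 library 2, 1967 with DESeq2). Depth limits TTR and VTN outside endoderm, where some sums hold fewer than 20 UMIs, and the 11 endoderm-like cells of mutant Day 14 library 2 limit that library.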

Other observations

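Clusters that met no lineage's naming thresholds, cluster 11 of Day 10 with 88 cells and cluster 33 of Day 14 with 189 cells, held APOA1 at 7.41 to 32.4 CPM, TTR at 0.232 to 5.40 CPM and VTN at 0 to 2.32 CPM in the 4 libraries with 5 or more such cells.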
